A study of Mus musculus with 4 samples.

Results

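The collagen chain genes were read across forebrain cells of the Pdgfra lineage with and without the MN1:BEND2 fusion gene. Members were all rows whose mouse symbol is Col, a type number, the letter a and a chain number. There were 44 of them among the 54348 genes of the table, with no symbol repeated. They comprised 11 fibrillar chains, 6 basement membrane chains of type IV, 9 chains of the FACIT class (fibril-associated collagens with interrupted triple helices) and 18 chains of other kinds. Live tdTomato-positive cells were sorted from forebrains of mice killed at postnatal day 4, after pial membranes had been removed by hand. The control genotype was PdgfraCreER;AI14 and the fusion genotype PdgfraCreER;MN1:BEND2;AI14, with 2 libraries each, and all mice received tamoxifen on postnatal days 0 and 1. PdgfraCreER is a tamoxifen-activated recombinase driven by Pdgfra, and AI14 makes red tdTomato after recombination, so the sort takes every cell type in which Pdgfra drove the recombinase and not oligodendrocyte precursors alone. MN1:BEND2 is a fusion gene of the brain tumour astroblastoma. The labels do not state whether a group's libraries are separate animals, so each p-value reflects library-to-library spread alone, which may be technical.

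Collagens are secreted or membrane proteins whose chains wind in threes into a triple helix. Fibrillar chains form the banded fibrils of skin, bone and the meninges, type IV chains form the sheet-like network of basement membranes, and FACIT chains sit on the surface of fibrils. In the brain most collagen lies in the meninges and around blood vessels, where fibroblasts, endothelial cells and pericytes make it, while the tissue between neurons holds little of it.

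Values were TPM, a share of the library's transcripts corrected for transcript length, so that levels can be set side by side between genes, while the read depth is unknown. The mitochondrial genome supplied 10.1% and 7.30% of control TPM (replicates 1 and 2) but 48.7% and 26.2% of fusion TPM. Between 12772 and 13219 genes reached 1 TPM in a control library and between 9050 and 10017 in a fusion library. The Y-linked gene Eif2s3y was at 121 and 122 TPM in controls and listed at 0 with the fusion, so sex and genotype cannot be told apart. Reads of Bend2 gave 3.82 and 8.72 TPM with the fusion and 0 in either control, which matches the labels. Pdgfra itself was at 337, 429, 123 and 192 TPM in control replicates 1 and 2 and fusion replicates 1 and 2, the order kept for all values by library that follow. All 12 oligodendrocyte precursor markers examined were tested, and their summed level was 1332, 1720, 465 and 601 TPM.

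Several collagen chains were higher in the fusion libraries while most other genes were lower. A chain was tested if 2 or more of the 4 libraries held it at 1 TPM or above. Of the 27 tested chains 7 rose (25.9%), 4 fell (14.8%) and 16 did not pass an adjusted p of 0.05 (limma on log2(TPM + 1), Benjamini-Hochberg over 12871 genes). Of all tested genes, 4.95% rose and 51.3% fell. The chains that rose were Col1a1, Col2a1, Col5a2, Col4a5, Col8a2, Col13a1 and Col18a1, and those that fell were Col9a3, Col19a1, Col24a1 and Col28a1. For 18 of the 27 chains each fusion value exceeded each control value, against 10.2% of all tested genes, and for 7 it was the reverse, against 71.1%. The median log2 change was 1.03 over the 27 chains and -1.41 over all tested genes, and the chains ranged from -2.25 to 3.59. In bulk RNA, fewer cells of a type and less RNA per cell cannot be told apart.

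The filter bears on these counts. There were 5 chains that reached 1 TPM in the fusion libraries only, of which 4 rose (Col2a1, Col5a2, Col8a2 and Col13a1), and 5 that reached it in the control libraries only, of which 3 fell (Col19a1, Col24a1 and Col28a1). Such chains had to differ in order to be tested. Among the 17 that reached it in a library of each group, 3 rose (Col1a1, Col4a5 and Col18a1), 1 fell (Col9a3) and 13 did not pass.

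The split also depends on how libraries are scaled, because the change of most genes was negative. After each library was rescaled so that its median ratio to the others was 1, 19 of the 27 chains were higher and 0 lower (2 lower at an unadjusted p under 0.05), against 14.3% and 18.6% of all tested genes, and the chains' median change was 2.11 against -0.15 over all genes. Quantile normalization gave 19 higher and 0 lower too (0 lower at an unadjusted p under 0.05), against 15.1% and 15.2%. With TPM computed without mitochondrially encoded genes, 14 chains were higher and 3 lower, against 7.78% and 38.4%. The 4 chains that fell therefore fell as a share of the library, and none of them passed as lower after rescaling. Without control replicate 1, and likewise without control replicate 2, 0 chains passed in either direction, where the lone control library was assumed to vary like the fusion libraries (limma). At an unadjusted p under 0.05 these fits had 1 and 5 chains higher and 4 and 3 lower. Genes that passed as higher were then 0.117% and 0.109% of all tested, and as lower 8.59% and 7.96%. Leaving out fusion replicate 1, whose mitochondrial share was largest, gave 11 higher and 4 lower, against 8.42% and 51.9%, and leaving out fusion replicate 2 gave 7 and 5, against 6.26% and 62.1%; in both, the spread comes from the control libraries alone and the lone fusion library is assumed to vary like them. With every gene above 0 in a library tested, 1 of 42 chains was higher and 2 were lower, against 1.42% and 18.4%. With only genes of a mean of 5 TPM or more, 2 of 7 chains were higher and 1 lower, against 5.27% and 57.8%. A correction for GC content and transcript length gave 19 and 0 (1 lower at an unadjusted p under 0.05), against 14.6% and 15.2%.

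**Figure D1:**
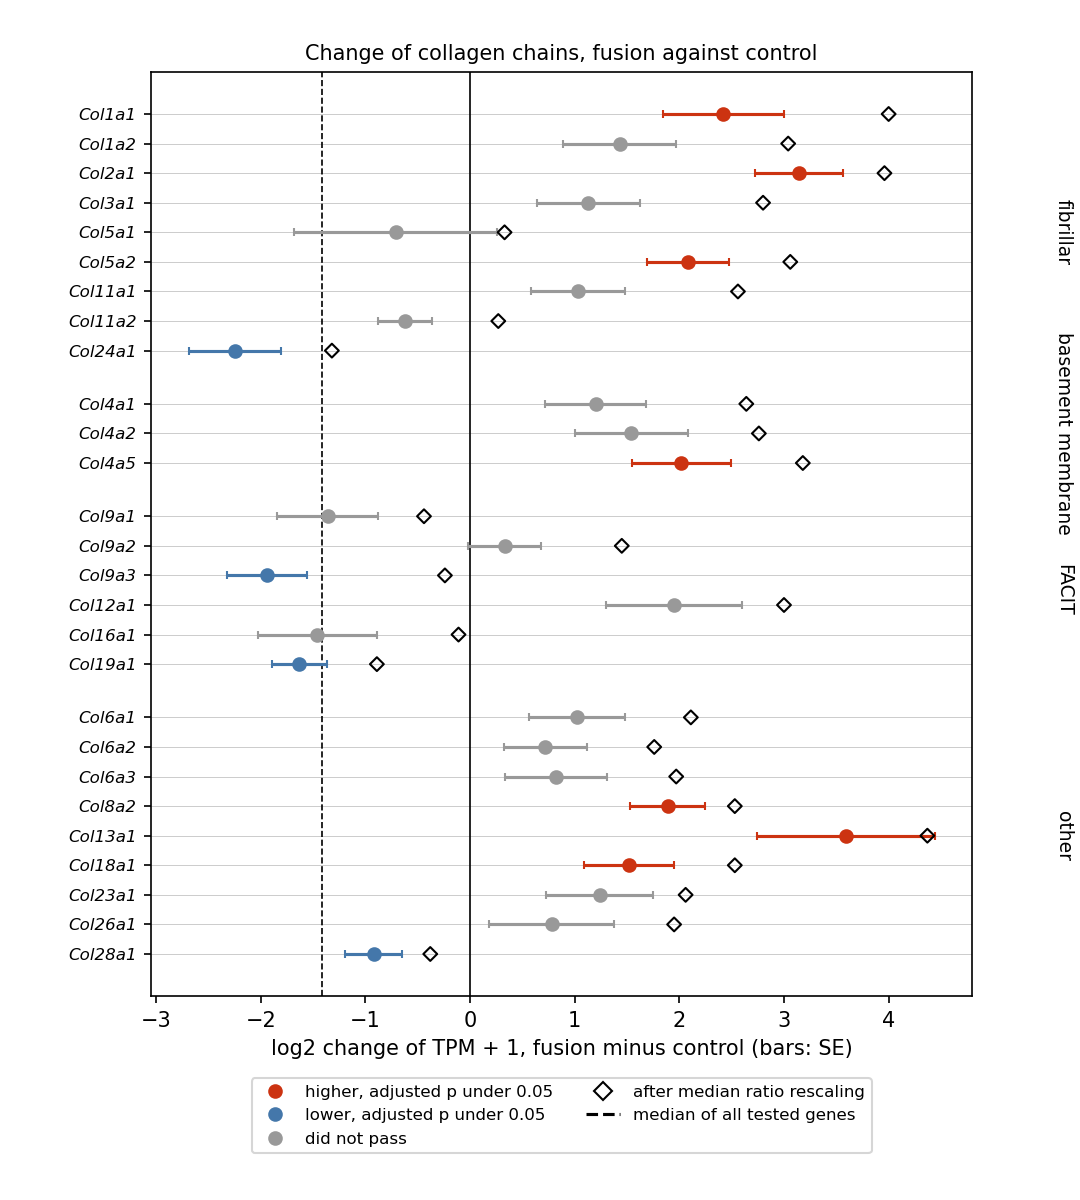
Log2 change of each of the 27 tested collagen chains, fusion minus control on log2(TPM + 1), with its standard error, coloured by whether the chain rose, fell or did not pass. Open diamonds give the change after rescaling libraries to a median ratio of 1 and the dashed line is the median of all tested genes, -1.41; most chains lie to its right and every diamond lies to the right of its filled point.

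Promoter sequence was read for the chains with a window in the set of RefSeq promoters used here. A window is the 250 bases before the start on build GRCm38.p6. The set held none for Col1a1, Col2a1, Col5a2 and Col9a3, among others. Of the 44 members 35 had a window. These 5 are shown because they belong to a chain that rose (Col13a1), to fibrillar chains that did not pass on deposited TPM but did after rescaling (Col3a1 and Col11a1), and to chains that fell as a share of the library (Col24a1 and Col28a1). Capitals mark the letters of a CCAAT box (CCAAT), a GC box (GGGCGG) or a TATA box (TATAAA), searched on both strands, and no motifs overlap in the windows shown. Sequences run 5′ to 3′ on the gene's strand.
Col13a1, chr10:61979109-61979358, minus strand: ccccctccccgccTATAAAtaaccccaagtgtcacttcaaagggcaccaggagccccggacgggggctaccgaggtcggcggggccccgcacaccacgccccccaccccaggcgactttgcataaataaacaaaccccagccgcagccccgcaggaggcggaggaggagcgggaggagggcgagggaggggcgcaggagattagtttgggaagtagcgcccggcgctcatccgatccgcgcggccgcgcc
Col3a1, chr1:45311288-45311537, plus strand: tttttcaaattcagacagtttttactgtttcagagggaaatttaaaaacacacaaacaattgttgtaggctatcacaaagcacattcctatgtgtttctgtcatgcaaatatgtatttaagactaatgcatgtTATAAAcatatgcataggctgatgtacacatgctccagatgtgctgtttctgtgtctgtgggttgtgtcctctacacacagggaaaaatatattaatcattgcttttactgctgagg
Col11a1, chr3:114030290-114030539, plus strand: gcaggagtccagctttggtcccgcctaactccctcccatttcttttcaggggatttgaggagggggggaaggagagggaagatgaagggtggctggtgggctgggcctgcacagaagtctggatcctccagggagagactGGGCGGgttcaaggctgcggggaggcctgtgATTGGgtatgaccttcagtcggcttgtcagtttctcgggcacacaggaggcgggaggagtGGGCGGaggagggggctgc
Col24a1, chr3:145292222-145292471, plus strand: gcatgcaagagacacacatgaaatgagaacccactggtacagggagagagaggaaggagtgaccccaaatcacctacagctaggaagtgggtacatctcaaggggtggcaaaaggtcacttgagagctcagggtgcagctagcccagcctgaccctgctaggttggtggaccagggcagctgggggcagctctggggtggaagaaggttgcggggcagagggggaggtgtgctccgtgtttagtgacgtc
Col28a1, chr6:8192618-8192867, minus strand: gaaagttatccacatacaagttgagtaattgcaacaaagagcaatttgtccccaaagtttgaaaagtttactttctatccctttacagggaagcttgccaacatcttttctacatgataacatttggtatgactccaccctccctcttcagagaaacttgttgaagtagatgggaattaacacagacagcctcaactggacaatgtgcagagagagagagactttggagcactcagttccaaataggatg
The Col13a1 window held TATAAA with its first base 237 bases before the start, and the Col3a1 window held it at 117. Col11a1 had GGGCGG at 110 and at 19, and CCAAT on the opposite strand at 79. The windows of Col24a1 and Col28a1 held none of the motifs.

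One window per gene, the first listed, was counted here. Col9a1, Col18a1 and Col6a2 have 2 each. The Col9a1 window not counted holds a CCAAT box, the Col6a2 window not counted holds a GC box, and the Col18a1 window not counted holds none of the motifs. Over the 35 members, a GC box stood in 21 windows (60.0%), against 32.9% of 27025 RefSeq promoter windows of the same length. A CCAAT box stood in 12 (34.3%), against 34.5%, and a TATA box in 5 (14.3%), against 13.0%. Col1a1, Col2a1 and Col5a2 rose and have no window, and Col9a3 fell and has none. Among the 4 chains that rose and have a window, 3 held a GC box (Col8a2, Col18a1 and Col4a5). Among the 3 that fell and have one (Col19a1, Col24a1 and Col28a1), 0 did. A GC box also stood in 9 of 14 windows of chains that did not pass and in 9 of 14 of chains not tested. These matches describe letters in a window and are not binding sites.

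Among the 9 tested fibrillar chains, Col1a1, Col2a1 and Col5a2 rose, 1 fell and 5 did not pass. Col1a1 (ENSMUSG00000001506.10, chromosome 11, 94936224 to 94953042, GRCm38) encodes the alpha-1 chain of type I collagen, the main fibril protein of connective tissue. It was at 3.78, 9.27, 25.9 and 51.6 TPM, so that both fusion libraries lay above both control libraries, and its log2 change was 2.42 ± 0.58 (SE; adjusted p = 0.0192, limma). Its partner Col1a2, the alpha-2 chain (ENSMUSG00000029661.16, chromosome 6, 4504814 to 4541544), was at 5.06, 13.5, 22.3 and 26.6 TPM. The groups of Col1a2 did not overlap either, but its change of 1.43 ± 0.54 (SE) did not pass (adjusted p = 0.0700, limma); after rescaling it was 3.04 and passed. Col3a1, the chain of type III collagen that shares fibrils with type I in the meninges and vessel walls, was at 10.9, 18.0, 23.3 and 43.5 TPM. It too was higher in both fusion libraries, by 1.13 ± 0.49 (SE), and did not pass (adjusted p = 0.101, limma), while after rescaling its change of 2.80 passed.

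Col2a1 (ENSMUSG00000022483.17, chromosome 15, 97975602 to 98004695) encodes the chain of type II collagen, known best from cartilage. It was listed at 0 in control replicate 1, was at 0.195 TPM in control replicate 2, and reached 6.58 and 11.2 TPM in the fusion libraries, a log2 change of 3.14 ± 0.42 (SE; adjusted p = 0.00456, limma). None of the tested cartilage markers rose with it. Of 12 markers 6 were tested, 0 rose (0 also at an unadjusted p under 0.05, limma) and 4 fell (66.7%, against 51.3% of all tested genes), with 2 lower after rescaling; their summed level was 336, 435, 7.98 and 25.1 TPM, and Acan, the cartilage proteoglycan aggrecan, was at 2.81, 3.44, 0.0531 and 0.530 TPM. Most of that sum was Sox6 (306, 385, 5.28 and 8.10 TPM), which oligodendrocyte precursors also express. Of the 4 markers that fell, Acan and Snorc reached 1 TPM in the control libraries only and so had to differ to be tested.

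Of the type V chains, which help start and limit the width of type I fibrils, Col5a2 rose, while Col5a1 did not pass and its groups overlapped. Col5a2 (ENSMUSG00000026042.16, chromosome 1, 45374321 to 45503282) was at 0.250, 0.790, 6.20 and 4.52 TPM, higher in both fusion libraries, and rose by 2.08 ± 0.39 on the log2 scale (SE; adjusted p = 0.00995, limma). Col5a1 (ENSMUSG00000026837.16, chromosome 2, 27886425 to 28039514) was at 2.39, 5.91, 0.159 and 6.60 TPM. The fusion libraries of Col5a1 lay on either side of the control libraries, and its change of -0.71 ± 0.97 (SE; adjusted p = 0.560, limma) turned to 0.33 after rescaling. Col5a3 was at 1.45, 0.599, 0.00611 and 0.333 TPM and was not tested.

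Type XI chains nucleate fibrils in cartilage and are also made in brain. Col11a1 (ENSMUSG00000027966.20, chromosome 3, 114030540 to 114220718) was at 5.25, 5.43, 9.27 and 15.4 TPM, and its change of 1.03 ± 0.45 (SE) did not pass (adjusted p = 0.102, limma), while its rescaled change of 2.56 did. Col11a2 (ENSMUSG00000024330.17, chromosome 17, 34039437 to 34066685) was at 1.41, 1.59, 0.754 and 0.503 TPM, a change of -0.62 ± 0.26 (SE; adjusted p = 0.0953, limma). Col11a1 was thus higher in both fusion libraries and Col11a2 lower in both as a share of the library, although the Col11a2 change turned to 0.27 after rescaling and did not pass. Col24a1 (ENSMUSG00000028197.4, chromosome 3, 145292472 to 145552011), a fibrillar chain found in developing bone and in the cortex, was at 5.67, 5.83, 0.0344 and 0.942 TPM and fell by 2.25 on the log2 scale (SE 0.44; adjusted p = 0.0110, limma). Its rescaled change of -1.32 was the lowest of the tested chains and did not pass. Col27a1, the remaining fibrillar chain, was at 0.701, 0.466, 0 and 0.178 TPM and was not tested.

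**Figure D2:**
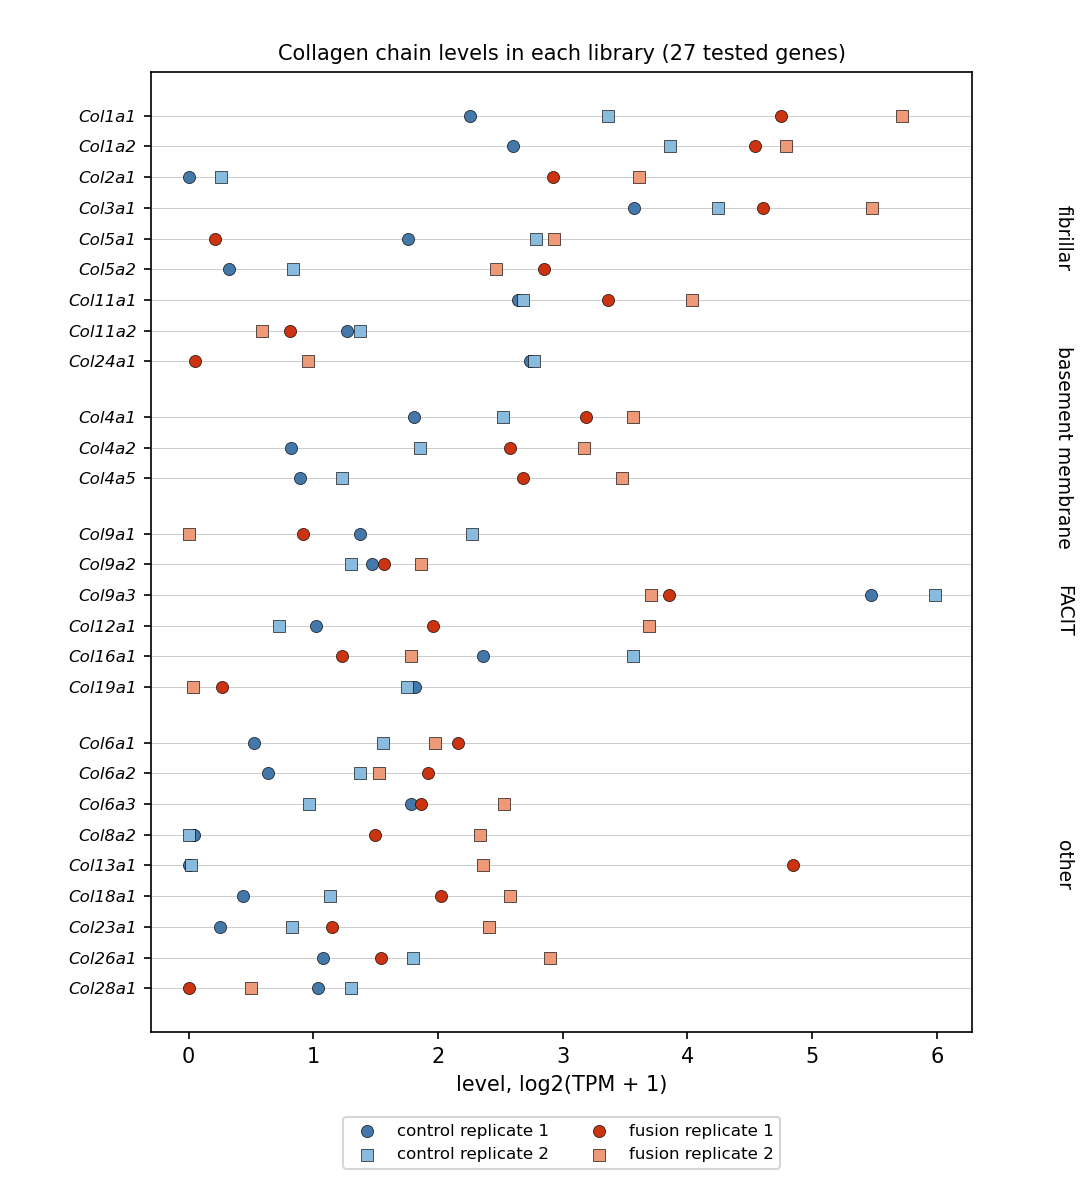
Level of the 27 tested collagen chains in each of the 4 libraries on the log2(TPM + 1) scale, grouped by class, with control and fusion libraries in separate colours. The fusion points of Col2a1, Col5a2 and Col13a1 stand clear of control points near 0, those of Col9a3 stand below their controls, and Col5a1 and Col13a1 show fusion libraries far apart.

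All 3 tested type IV chains were higher in both fusion libraries, and 1 of them rose. Col4a1 and Col4a2 build the network common to all basement membranes, and they start from opposite strands of the same stretch of chromosome 8, where their annotated starts overlap by 22 bases. Col4a1 (ENSMUSG00000031502.11, 11198423 to 11312826) was at 2.50, 4.75, 8.08 and 10.8 TPM, a change of 1.20 ± 0.48 (SE; adjusted p = 0.0816, limma). Col4a2 (ENSMUSG00000031503.13, 11312805 to 11449287) was at 0.770, 2.62, 4.97 and 8.02 TPM, a change of 1.54 ± 0.54 (SE; adjusted p = 0.0578, limma). Neither passed, their groups did not overlap, and both passed after rescaling, at 2.64 and 2.76. An antisense gene that overlaps Col4a1, Gm15418, was at 5.27, 4.96, 1.11 and 0 TPM. Without a stated strand, the reads of any sequence shared by both genes cannot be told apart.

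Col4a5 (ENSMUSG00000031274.16, chromosome X, 141475385 to 141689234), a chain of the kidney, lung and smooth muscle basement membranes, was at 0.856, 1.35, 5.43 and 10.1 TPM. Both fusion libraries were above both control libraries, and the gene rose by 2.02 ± 0.47 on the log2 scale (SE; adjusted p = 0.0180, limma). It is X-linked, and the groups also differ in the Y-linked genes, so for this chain sex and the fusion gene cannot be told apart. Its neighbour Col4a6, which starts 1308 bases away on the other strand, was at 0.0477, 0.473, 0.0505 and 0.531 TPM and was not tested. The summed level of 15 endothelial markers was 4.05, 8.37, 4.09 and 9.65 TPM, and its groups overlapped. Of the 2 tested, Cdh5, the endothelial cadherin, was at 0.252, 0.152, 1.11 and 1.13 TPM and rose (adjusted p = 0.0231, limma), having reached 1 TPM in the fusion libraries only, while the defining marker Pecam1 was at most 0.240 TPM. The summed level of 15 pericyte and smooth muscle markers was 60.3, 228, 16.5 and 142 TPM, and its groups overlapped. Its most abundant genes were Vtn (54.4, 214, 14.4 and 54.8 TPM) and Higd1b (1.33, 1.18, 0 and 62.0 TPM), Cnn1 was listed at 0 in every library, and their part in the type IV levels was not tested.

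The FACIT class was the one whose share of collagen was lower in the fusion libraries. Col9a3 (ENSMUSG00000027570.15, chromosome 2, 180597790 to 180622189), a chain of type IX collagen, had the highest level of any collagen gene in both control libraries. It was at 43.4, 62.2, 13.4 and 12.1 TPM, lower in both fusion libraries, and fell by 1.94 on the log2 scale (SE 0.38; adjusted p = 0.0108, limma). That lies -0.54 from the median change of all genes, and after rescaling the change was -0.24 and did not pass. Tcfl5 overlaps it on the opposite strand and was at 0.598, 0.883, 2.77 and 0.288 TPM. The other type IX chains did not pass: Col9a1 (ENSMUSG00000026147.16) was at 1.59, 3.84, 0.892 and 0 TPM, a change of -1.36 ± 0.48 (SE; adjusted p = 0.0588, limma). Col9a2 (ENSMUSG00000028626.5) was at 1.77, 1.46, 1.97 and 2.63 TPM, a change of 0.33 ± 0.35 (SE; adjusted p = 0.444, limma). Col9a2 was thus the type IX chain that was not lower in the fusion libraries, and it passed as higher after rescaling, at 1.45.

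Col19a1 (ENSMUSG00000026141.13, chromosome 1, 24261890 to 24587472), a FACIT-like chain known from neurons, was at 2.52, 2.36, 0.204 and 0.0272 TPM. It was close to 0 in both fusion libraries and fell by 1.63 on the log2 scale (SE 0.26; adjusted p = 0.00634, limma), and its rescaled change of -0.89 did not pass. It lies 9205 bases from Col9a1. Of 11 neuron markers 8 were tested, 0 rose and 5 fell (62.5%, against 51.3% of all tested genes), with 1 higher and 2 lower after rescaling. Among those that fell, Syt1 reached 1 TPM in the control libraries only and so had to differ to be tested. The summed level of the 11 markers was 264, 262, 62.9 and 62.4 TPM, and their part in the Col19a1 difference was not tested. Col12a1, which binds type I fibrils, was at 1.03, 0.654, 2.90 and 11.9 TPM and missed the threshold with a change of 1.95 ± 0.65 (SE; adjusted p = 0.0509, limma). Col16a1 was at 4.14, 10.8, 1.35 and 2.44 TPM, a change of -1.46 ± 0.57 (SE; adjusted p = 0.0786, limma). Both of these had groups that did not overlap. Of the untested FACIT chains, Col20a1 was at 0.461, 1.07, 0 and 0 TPM and Col14a1 was listed at 0 in every library.

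Among the other chains, Col13a1 and Col8a2 went from near 0 to a measurable level. Col13a1 (ENSMUSG00000058806.15, chromosome 10, 61838236 to 61979108) encodes a transmembrane collagen of cell junctions, known from the neuromuscular synapse. Its controls were listed at 0 and 0.0151 TPM, and the fusion libraries, at 27.7 and 4.15 TPM, differed widely from each other. Its change of 3.59 ± 0.85 (SE; adjusted p = 0.0184, limma) was the largest of the tested chains over all 4 libraries, but without fusion replicate 1 it was 2.35, below the 3.48 of Col2a1. It was the most abundant collagen of fusion replicate 1. Col8a2 (ENSMUSG00000056174.8, chromosome 4, 126286793 to 126314330), a short chain of the corneal and vascular network, was at 0.0330, 0, 1.82 and 4.04 TPM and rose by 1.89 ± 0.36 on the log2 scale (SE; adjusted p = 0.00983, limma). Its partner Col8a1 was at 0.219 TPM in control replicate 2 and listed at 0 in the others.

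Col18a1 (ENSMUSG00000001435.15, chromosome 10, 77052178 to 77166548) encodes a basement membrane proteoglycan whose end fragment is endostatin. It was at 0.351, 1.19, 3.07 and 4.97 TPM, higher in both fusion libraries, and rose by 1.52 ± 0.43 on the log2 scale (SE; adjusted p = 0.0313, limma). Slc19a1, a folate carrier gene that overlaps it on the opposite strand, was at 17.8, 31.7, 0.721 and 0.346 TPM, the other direction; without a stated strand the reads of the overlap cannot be told apart. Col28a1 (ENSMUSG00000068794.7, chromosome 6, 7997808 to 8192617), a chain of peripheral glia, was at 1.05, 1.47, 0 and 0.417 TPM and fell by 0.92 on the log2 scale (SE 0.27; adjusted p = 0.0367, limma). That is less than the median fall of all genes, by 0.49, and its rescaled change of -0.38 did not pass.

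The type VI chains, which form beaded filaments around cells, were 0 of 3 past the threshold, also at an unadjusted p under 0.05. Col6a1 was at 0.438, 1.95, 3.46 and 2.93 TPM, a change of 1.02 ± 0.46 (SE; adjusted p = 0.113, limma). Col6a2 was at 0.555, 1.59, 2.79 and 1.88 TPM, a change of 0.72 ± 0.40 (SE; adjusted p = 0.174, limma), and Col6a3 was at 2.44, 0.948, 2.63 and 4.78 TPM, a change of 0.82 ± 0.49 (SE; adjusted p = 0.200, limma). No fusion value of these chains was below a control value, and all 3 passed as higher after rescaling. The transmembrane chain Col23a1 was at 0.188, 0.779, 1.22 and 4.30 TPM, and Col26a1 at 1.11, 2.48, 1.91 and 6.44 TPM; neither passed. Of the 17 chains not tested, 14 were below 1 TPM in every library. Col7a1, the chain of anchoring fibrils in skin, was at 0, 0.0229, 8.10 and 0.108 TPM and so was high in fusion replicate 1 alone. Col14a1 and Col17a1 were listed at 0 in all 4 libraries.

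Summed over all 44 genes, collagen TPM was 103, 164, 186 and 254. Fibrillar chains made up 35.6% and 37.5% of that in controls against 50.7% and 63.5% with the fusion, and FACIT chains 53.1% and 50.2% against 11.1% and 11.5%. Basement membrane chains made up 4.24% and 5.70% against 9.94% and 11.6%, and the other chains 7.02% and 6.57% against 28.2% and 13.4%. For each class the groups did not overlap. These shares do not depend on the scaling of a library. The lower FACIT share was mostly that of Col9a3, at 42.0% and 37.9% of collagen TPM in controls against 7.21% and 4.78% with the fusion. Col1a1 went from 3.66% and 5.65% to 13.9% and 20.3%, while Col3a1 was at 10.5%, 11.0%, 12.5% and 17.1%.

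**Figure D3:**
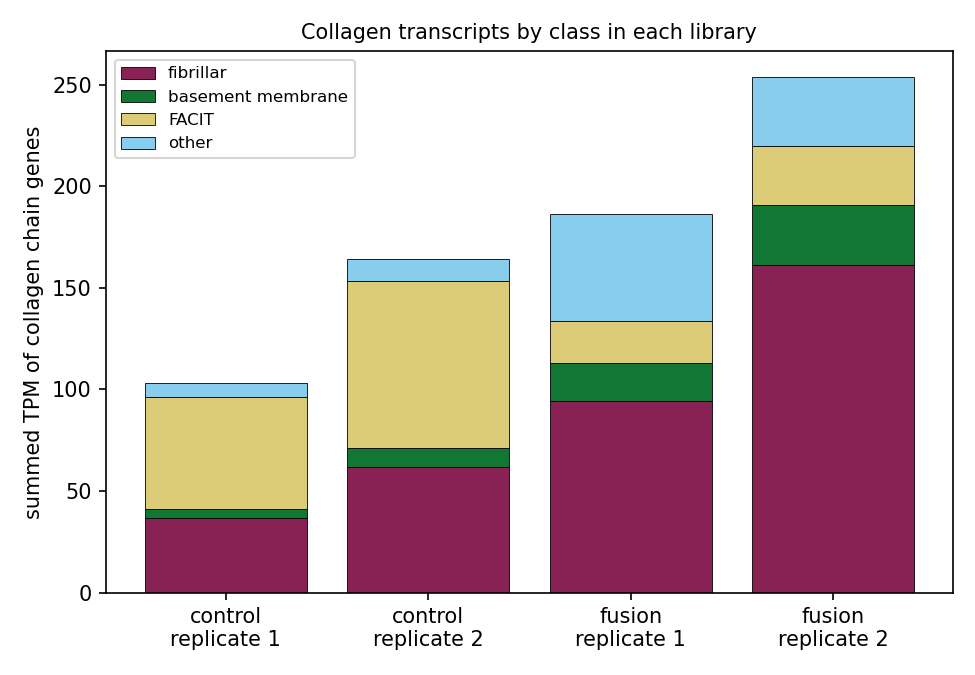
Summed TPM of the collagen genes in each library, stacked by class, with bars starting at 0. FACIT chains fill 53.1% and 50.2% of the control bars and 11.1% and 11.5% of the fusion bars, and fibrillar chains 50.7% and 63.5% of the fusion bars.

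The order of the chains differed between the groups. Col9a3 led in both control libraries, followed by Col3a1. Col13a1 led in fusion replicate 1, ahead of Col1a1 at 25.9 and Col3a1 at 23.3 TPM, which differ from each other by less than the fusion libraries of Col1a1 do (25.9 and 51.6 TPM). Col1a1 led in fusion replicate 2, followed by Col3a1. Across the 27 tested chains, Pearson's r of log2(TPM + 1) was 0.929 for the control pair, 0.798 for the fusion pair and 0.241 to 0.372 for pairs of unlike groups. Over all tested genes these were 0.973, 0.894 and 0.676 to 0.735. Chains are not independent replicates, and their selection by level bears on these values.

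Chains that assemble into one protein were compared within each library, which removes the library's scale. The ratio of Col1a1 to Col1a2, which combine in type I collagen as a pair of alpha-1 chains and 1 alpha-2 chain, was 0.748 and 0.687 in controls against 1.16 and 1.94 with the fusion, a log2 difference of 1.07. Col11a1 over Col11a2 was 3.73 and 3.42 against 12.3 and 30.6. Col9a3 over Col9a2 was 24.6 and 42.6 against 6.81 and 4.61. Each of these ratios separated the groups without overlap.

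The ratio of Col4a1 to Col4a2 was 3.24 and 1.81 in controls against 1.63 and 1.34 with the fusion, a log2 difference of -0.72 that is close to the spread of the control libraries (SD 0.59). Col5a1 over Col5a2 was 9.57 and 7.49 against 0.0256 and 1.46, and Col4a5 over Col4a6 was 18.0 and 2.86 against 108 and 19.1. The spread between libraries of 1 group was wide in both pairs. Col6a1 over Col6a2 was 0.788 and 1.23 against 1.24 and 1.55, and the groups of Col6a1 over Col6a3 overlapped. Col9a1 over Col9a2 was 0.899, 2.63 and 0.452 in the libraries where both were above 0. With 2 libraries a group the smallest p an exact 2-sided permutation test of a ratio can give is 0.333, so the ratios are given as values without a test.

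**Figure D4:**
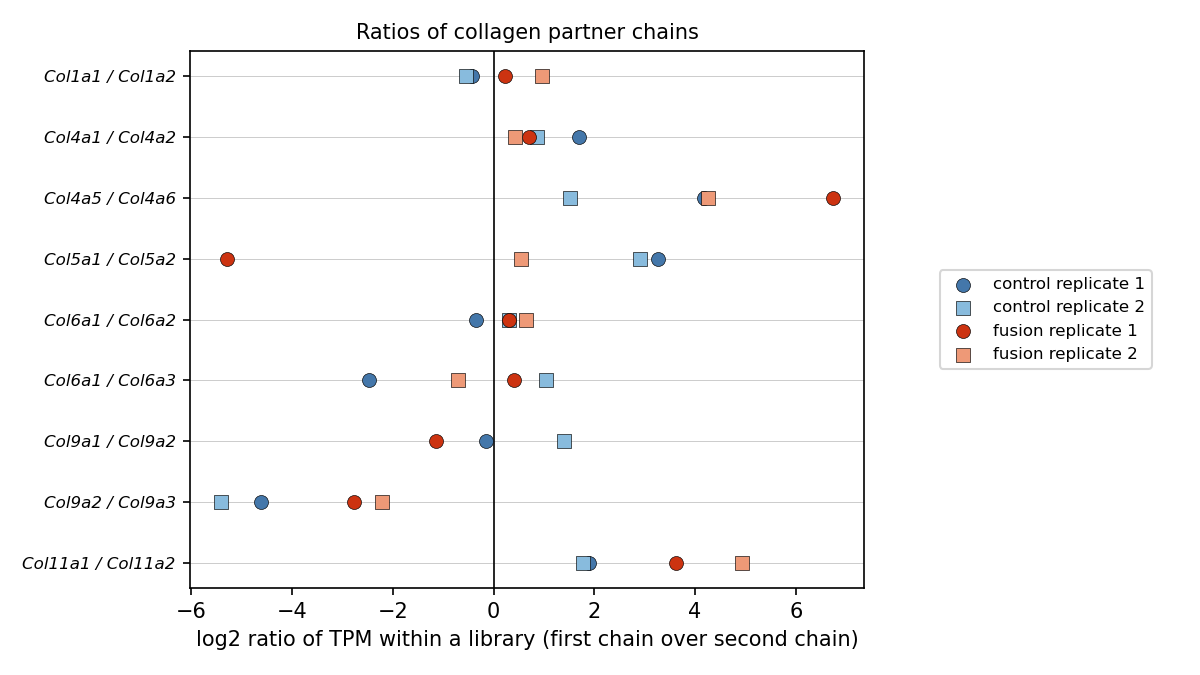
Log2 ratio of partner chains within each library, 1 row per pair, with control and fusion libraries in separate colours. Col1a1 over Col1a2 and Col11a1 over Col11a2 are higher in both fusion libraries, and Col6a1 over Col6a3 overlaps between the groups.

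Counts over the genes that make, fold, assemble and break down collagen are to be set beside the 4.95% of all tested genes that rose and the 51.3% that fell. Among 19 genes for the hydroxylation and folding of chains, 14 were tested, 1 rose (7.14%) and 8 fell (57.1%), and after rescaling 2 were higher and 2 lower. Genes that reached 1 TPM only in the group where they are high had to differ to be tested, and of those that rose in these lists this holds for Serpinh1, Loxl2, Thbs2 and Mmp9, and of those that fell for P3h1, Mia2 and Ddr1. The gene that rose was Serpinh1, which encodes HSP47, the chaperone specific for collagen. It was at 0.991, 0.905, 10.3 and 11.4 TPM, a log2 change of 2.60 ± 0.41 (SE; adjusted p = 0.00619, limma). P4ha1, a subunit of prolyl 4-hydroxylase, was at 26.5, 34.3, 2.77 and 2.82 TPM and fell by 3.04 on the log2 scale (SE 0.40; adjusted p = 0.00451, limma), and Fkbp14, a folding enzyme of the endoplasmic reticulum, fell by 3.33. Both also passed as lower after rescaling. Plod3, a lysyl hydroxylase, was at 11.8, 18.2, 0.646 and 1.59 TPM and fell as well. Of 9 tested genes for secretion and propeptide cleavage 0 rose and 3 fell (33.3%), with 2 higher and 0 lower after rescaling. Those that fell were Mia3, Mia2 and Sec23a, which act in loading collagen into transport vesicles. Mia3 was at 35.4, 39.6, 7.19 and 4.03 TPM, and none of its fusion values reached its control values.

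Of 10 tested genes for crosslinking and fibril partners, 4 rose (40.0%) and 2 fell (20.0%), with 6 higher and 0 lower after rescaling. Fn1, which encodes fibronectin, the glycoprotein on which fibrils are laid down, was at 1.93, 2.01, 65.7 and 77.1 TPM, a log2 change of 4.61 ± 0.38 (SE; adjusted p = 0.00367, limma). Lox, the lysyl oxidase that starts crosslinks between chains, was at 0.840, 1.30, 50.2 and 40.7 TPM, a change of 4.49 ± 0.42 (SE; adjusted p = 0.00367, limma), and its relative Loxl2 was at 0.867, 0.675, 7.54 and 6.14 TPM. In each of these genes the fusion libraries were close to each other and far above the control libraries. Sparc, a collagen-binding protein of glia and fibroblasts, was at 127, 214, 34.4 and 73.7 TPM, a change of -1.69 ± 0.51 (SE; adjusted p = 0.0390, limma) that was 0.06 after rescaling and did not pass.

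Of 9 tested basement membrane partners of type IV collagen 0 passed (1 higher and 1 lower at an unadjusted p under 0.05, limma), and after rescaling 4 were higher and 0 lower. Agrn, the proteoglycan agrin, had the highest mean of the list, at 27.4, 41.1, 9.70 and 18.9 TPM. Nid1, a linker of laminin and type IV collagen, was at 1.03, 4.43, 8.26 and 13.1 TPM, a change of 1.78 ± 0.63 (SE; adjusted p = 0.0589, limma), and Lamc1, the laminin gamma-1 chain, was at 19.6, 19.4, 20.6 and 25.0 TPM. Nid1 and Lamc1 were among the 4 that passed after rescaling. Of 6 tested receptors 0 rose and 3 fell, namely Itgb1, Ddr1 and Adgrg1. After rescaling 0 were lower, and the change of Itgb1 turned from -1.26 to 0.47. Ddr1, a receptor kinase that binds collagen, was at 3.92, 5.10, 0.410 and 0.589 TPM. Of 11 tested turnover genes 2 rose (18.2%) and 4 fell (36.4%), with 2 higher and 1 lower after rescaling. Mmp9, a gelatinase, was at 1.39 and 5.53 TPM with the fusion and listed at 0 in controls, and the protease inhibitor genes Timp3 and Timp4 fell, Timp4 being at 168, 211, 13.7 and 26.8 TPM. Over all 6 lists 7 genes rose and 20 fell, and after rescaling 16 were higher and 3 lower.

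Markers of cells that make collagen were examined beside the chains. Of 22 fibroblast and meningeal markers 14 were tested, 4 rose (28.6%) and 1 fell (7.14%), against 4.95% and 51.3% of all tested genes, and their summed level was 62.1, 160, 447 and 912 TPM. Most of the sum in the fusion libraries was Mgp, a matrix protein that inhibits calcification, at 0, 1.34, 364 and 717 TPM. Without it the other 21 markers summed to 62.1, 159, 82.8 and 194 TPM, and the groups overlapped. Dcn and Lum, fibril-binding proteoglycans of fibroblasts, were at 18.9, 66.5, 37.6 and 67.6 TPM and at 9.05, 16.0, 7.00 and 52.0 TPM. Neither passed on deposited TPM and both had groups that overlapped. After rescaling Dcn passed as higher, with a change of 2.21, and Lum did not pass. Of the 14 tested markers 7 were then higher and 0 lower, against 14.3% and 18.6% of all tested genes. Tbx18, one of the 4 that rose, was at 0.815, 1.45, 4.16 and 7.69 TPM. Foxd1, a transcription factor gene of meningeal and kidney stroma, was at 0, 0.0424, 5.72 and 10.1 TPM; like Foxc1, it rose but reached 1 TPM in the fusion libraries only. Pdgfrl, the marker that fell, was at 4.36, 10.2, 0.685 and 0 TPM and reached 1 TPM in the control libraries only. Among markers that did not pass or were not tested, Fbln1, Crabp2, Ogn and Slc13a3 were lower in both fusion libraries than in either control. Aldh1a2, Twist1 and Prrx2 were higher in both. The meningeal transporter Slc47a1 was listed at 0 in every library.

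Of 13 microglia and macrophage markers 11 were tested, 3 rose (27.3%) and 2 fell (18.2%), with a summed level of 132, 57.7, 174 and 303 TPM. Of 10 choroid plexus markers 4 were tested, 1 rose (25.0%, against 4.95% of all tested genes) and 3 fell (75.0%, against 51.3%). After rescaling 1 was higher and 2 lower. Ttr, which rose, was at 0, 0.255, 107 and 15.4 TPM and reached 1 TPM in the fusion libraries only. Enpp2, the most abundant, was at 640, 666, 34.7 and 65.3 TPM and fell. Otx2 and Sostdc1 also fell but reached 1 TPM in the control libraries only. Kcnj13 and Folr1 were listed at 0 in every library. Against the 51.3% of all tested genes that fell, 8 of 12 oligodendrocyte precursor markers fell (66.7%) and 0 rose, and after rescaling 2 were lower and 1 higher. Of 9 tested markers of maturing oligodendrocytes 0 rose and 9 fell (100%), with 6 lower after rescaling, and their summed level was 2323, 3289, 217 and 191 TPM. Of 9 tested astrocyte markers 0 rose and 5 fell (55.6%), with 2 higher and 1 lower after rescaling, and their summed level was 456, 528, 105 and 154 TPM. Among the microglia and oligodendrocyte markers that fell, P2ry12, Matn4, Mog and Myrf reached 1 TPM in the control libraries only and so had to differ to be tested. Over all marker lists 9 genes rose and 37 fell, and after rescaling 17 were higher and 15 lower. The mitochondrial share and the 4 fibroblast markers that rose, Mgp among them, were higher in the fusion libraries. Those markers and the chains that rose were both picked for being higher there, so their agreement was fixed in advance. The part of the mitochondrial share and of these markers in the collagen differences was not tested.

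**Figure D5:**
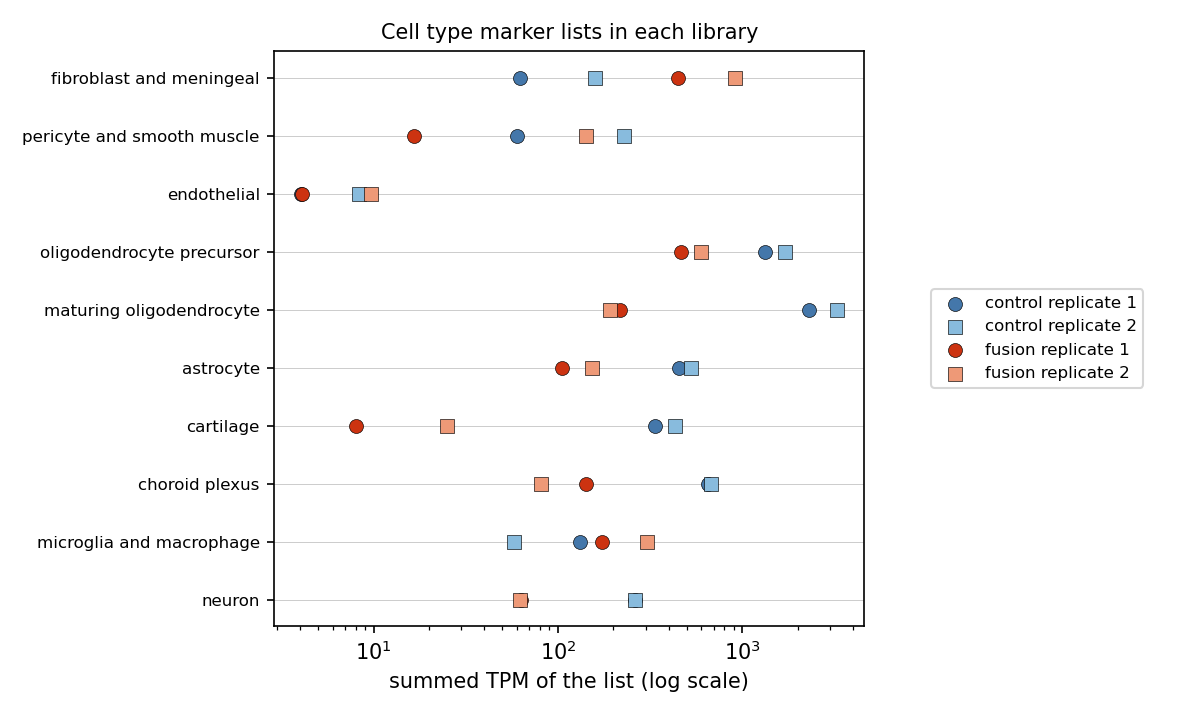
Summed TPM of each cell type marker list in each library, on a log axis, with control and fusion libraries in separate colours. The fibroblast and meningeal list is higher in both fusion libraries (447 and 912 against 62.1 and 160 TPM) through Mgp, without which it overlaps, the pericyte and endothelial lists overlap, and the oligodendrocyte lists are lower.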

How the data were processed

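RNA-seq was done on live tdTomato-positive forebrain cells of 2 control and 2 fusion libraries, with full-length cDNA from a single-cell kit read in pairs of 100 bp, according to the labels' protocols, which state no strand-specific kit. The authors deposited 1 table of TPM per gene, in which each library sums to 1000000, so depth is unknown and no counting interval is given. Per the submitters' processing notes, tools were Trimmomatic 0.39 and Salmon 1.8.0, with GRCm38 and mm10 as builds; the annotation release was not given in the sources used here. Groups came from the genotype in the titles, and columns were matched by group and replicate number.

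Genes at 1 TPM or above in 2 or more libraries were tested on log2(TPM + 1) with limma 3.58.1 in R 4.3.3 (trend, 2-sided, Benjamini-Hochberg over 12871 genes, threshold 0.05), so a change understates that of low genes; 3.25 prior degrees of freedom stood beside 2 residual ones. The fit was tested on simulated data. Coordinates came from GENCODE M21 (GRCm38), matched by gene identifier without its version. Chains were named in full where they passed, led a class or had a tested partner; pathway genes were the up to 3 with the largest change among those past the threshold, or the one of highest mean where none passed, with Fn1 and Sparc beside them, and markers were the most abundant of their list. Nid1, Lamc1, Cdh5, Foxc1, Foxd1, Tbx18, Acan, Slc47a1, Pecam1, Cnn1, Kcnj13, Folr1, Serpinh1 and Mmp9 were added after their values were seen. The same holds for Pdgfrl, Fbln1, Crabp2, Ogn, Slc13a3, Aldh1a2, Twist1, Prrx2, Otx2, Snorc, Syt1, Matn4, Mog, Myrf and P2ry12. Members and lists were chosen with earlier results of these data known. Alternatives were other pseudocounts (0.1 and 5), filters, scalings and limma settings, a GC and length correction, a replicate block and each library left out.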

Additional observations from a re-analysis of the deposited data

How the results depend on the processing

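The count of 7 collagen chains higher and 4 lower changed with several settings, and the cause was not tested except where fewer libraries or other genes were used. With every gene above 0 in a library tested it was 1 and 2, among genes averaging 5 TPM or more 2 and 1 of 7 chains, with median ratio scaling, quantile normalization or the correction for GC content and length 19 and 0, and without mitochondrially encoded genes 14 higher. Tested chains had a median transcript length of 5564 nt and GC content of 56.7%, against 3138 nt and 48.8% for all tested genes. Leaving out each library gave 0 to 11 higher and 0 to 5 lower. The median change of 1.03 was 0.47 with a pseudocount of 5, 0.02 with no filter, 2.11, 2.28 and 2.42 under the 3 scalings and corrections in the order given, 1.58 without mitochondrially encoded genes, and 0.70 to 1.47 with a library left out.

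Direction reversed for Col5a1 (0.33, 0.65 and 0.47 with median ratio, quantile and GC and length settings, and, as one library is left out, 0.65 without fusion replicate 1 and -2.06, newly past the threshold, without fusion replicate 2), Col11a2 (0.27, 0.71 and 0.42 in the same order), Col9a1 (0.34 with the GC and length correction) and Col28a1 (0.16 with quantile normalization and 0.66 with the correction). Over the tested chains and alternatives, 270 values kept direction and side of the threshold, 58 newly passed, 47 no longer passed and 10 reversed. Pathway genes went from 7 higher and 20 lower to 16 and 3 with median ratio scaling and 16 and 4 with quantile normalization, and markers from 9 and 37 to 17 and 15 and to 17 and 13. Ratios of partner chains with a pseudocount of 0.1 moved by less than their spread.

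The replicate block gave 11 higher and 6 lower, against 4.99% and 54.2% of all tested genes. Deviations of libraries with the same number had a correlation of -0.0398 over all tested genes. With so few libraries this cannot show whether those of the same number share a litter, day or preparation, which the labels do not state. Depth is unknown, so levels under 1 TPM cannot be told from sampling.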
